A study of Homo sapiens with 2 samples.

Results

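The genes described here were homeobox genes of the NKX, LHX, DLX and IRX families and the sine oculis family (SIX2, SIX3 and their relatives), which encode transcription factors that pattern the embryo. They were taken by symbol as every autosomal protein-coding gene with the stem of 1 of these families followed only by digits, or for NKX by a digit, a dash and digits, in GENCODE release 44 mapped to hg19. All 40 genes found this way had at least 10 CpG sites measured in both libraries, out of 18100 autosomal protein-coding genes with that many sites. The 40 genes were 14 NKX, 8 LHX, 6 DLX and 6 IRX genes and the 6 sine oculis genes. The data were 2 MCC-Seq libraries, in which bisulfite-converted DNA is enriched with capture probes and sequenced. There was 1 library of SKNO-1, a line grown from acute myeloid leukemia (AML) with t(8;21), the translocation that makes the RUNX1-RUNX1T1 (AML1-ETO) fusion. There was 1 library of SKNO1-siAE, which was made from SKNO-1 by infection with the lentiviral vector pRRLcPPT.hPGK encoding siAGF1 oligonucleotides directed at the junction of the fusion transcript. Both lines grew in the same medium with fetal calf serum, and the labels name no further treatment of either. The comparison asked which CpGs differed in methylation between the line with the fusion and the line in which it was silenced. A library of SKNO-1 infected with a vector without these oligonucleotides was not analysed here, so silencing of the fusion, infection and the separate growth of the derived line cannot be told apart. Bisulfite read counts hold no expression, so neither the level of the fusion nor markers of the cell type were checked here.

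A homeobox is the stretch of a gene that encodes the homeodomain, a small helical fold that binds DNA. The NK genes shape heart, foregut, pancreas, cartilage and nervous system. The LIM homeobox genes add paired zinc-binding LIM domains, through which they bind LDB cofactors and specify neurons and other organs. Sine oculis proteins act with EYA coactivators in eye, ear, kidney and muscle, DLX genes act in forebrain, jaw and limb and lie in the genome as neighbouring couples, and IRX genes lie in clusters and act in heart and nervous system. In cells of other lineages such genes are commonly kept silent by Polycomb proteins, and their CpG islands, which are CpG-dense stretches normally free of methylation, are a known target of added methylation in cancer.

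The deposited counts gave 83620068 reads at 4713346 CpG cytosines in SKNO-1 and 82164216 reads at 4694016 CpG cytosines in SKNO1-siAE. Cytosines covered by 5 reads or more in each library, 3168726 in all, were used, and each cytosine, on its own strand, was a site. The level of a site was its share of methylated reads, from 0 to 1, and the level of a promoter or gene body was the mean over its sites. A promoter ran from 1500 bp upstream to 500 bp downstream of each annotated transcript start, and the gene body was the rest of the gene. Every difference is given as SKNO-1 minus SKNO1-siAE, and a promoter or body was counted as higher or lower when its difference was at least 0.2. With 1 library of each line there was no replicate spread, and no test of the lines could be made. Intervals are 95% Wilson intervals on pooled reads, which cover counting error only and are too narrow, since neighbouring sites share reads and the reads carried no molecular identifiers.

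The 40 genes held 10399 shared sites, 4745 in promoters and 5654 in gene bodies, with a median depth of 14 reads in each library. Their mean site level was 0.749 in SKNO-1 and 0.823 in SKNO1-siAE, against 0.588 and 0.655 over all shared autosomal sites. The homeobox sites were thus more methylated than the rest of the captured genome in both libraries, and their difference of -0.0739 was close to the -0.0673 of all autosomal sites. By a 2-sided Fisher's exact test on the reads of each site, requiring an adjusted p under 0.05 and a level at least 0.2 apart, 417 of these sites (4.01%) were higher in SKNO-1, against a background of 4.40%. A further 1178 sites (11.3%) were lower, against a background of 11.7%. That test compares the reads of these 2 libraries and not the conditions. Among the families, the share of sites called lower ran from 9.36% in IRX to 13.2% in DLX genes.

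The homeobox promoters were mostly methylated in both lines. The median promoter level of the 40 genes was 0.736 in SKNO-1 and 0.846 in SKNO1-siAE, whereas the medians over all genes with a measured promoter were 0.296 and 0.387. A level of at least 0.5 in SKNO1-siAE was found for 35 of the 40 promoters (87.5%), against 44.3% of all promoters. The contrast was also seen among CpG-rich promoters, which held a 500-bp window over 55% in GC and over 0.75 in the ratio of observed to expected CpGs. Of these, 32.7% were at 0.5 or above in SKNO1-siAE, while 27 of the 32 homeobox promoters that met the definition (84.4%) were. The typical homeobox promoter was also denser in CpGs, with a median of 112 in the 2000 bp around the start of the gene, against 81 over all genes.

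Of the 40 homeobox promoters, 0 were higher in SKNO-1 by 0.2 or more, where the background was 2.48% of 17258 promoters, 2.21% of CpG-rich promoters and 0.961% of CpG-rich promoters at 0.5 or above in SKNO1-siAE. The promoters of 8 genes (20%) were lower, among them NKX3-2, SIX5, DLX3, SIX2, IRX6, LHX9 and LHX1, where the background was 13.4%, or 11.0% of CpG-rich promoters. Among the CpG-rich promoters at 0.5 or above in SKNO1-siAE 28.3% were lower, in a class whose choice by the SKNO1-siAE level itself favours lower values in SKNO-1. Of the 27 homeobox promoters in that class 7 (25.9%) were lower, so the share of lower promoters was near that of other methylated CpG-rich promoters. The median promoter difference of the 40 genes was -0.0479, against -0.0127 over all genes. With the promoter of each gene's 5′ end alone the medians were -0.0254 over 37 of the genes and -0.00834 over all genes. The median of the 27 was -0.0542, against -0.0763 in the methylated CpG-rich class. In gene bodies, 0 of 39 were higher, with a background of 2.33%, and 4 (10.3%) were lower, with a background of 10.0%. The 4 were the bodies of NKX6-3, DLX4, DLX2 and NKX6-1. The body of DLX6 had 5 sites, too few for a value. Differences of any size below 0 were found in 32 of the 40 promoters (80%), against 64.1% of all promoters, and in 28 of the 39 bodies (71.8%), against 64.7% of all bodies. Among the 27 promoters of the methylated CpG-rich class 24 (88.9%) were below 0, against 80.6% of that class.

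**Figure D1:**
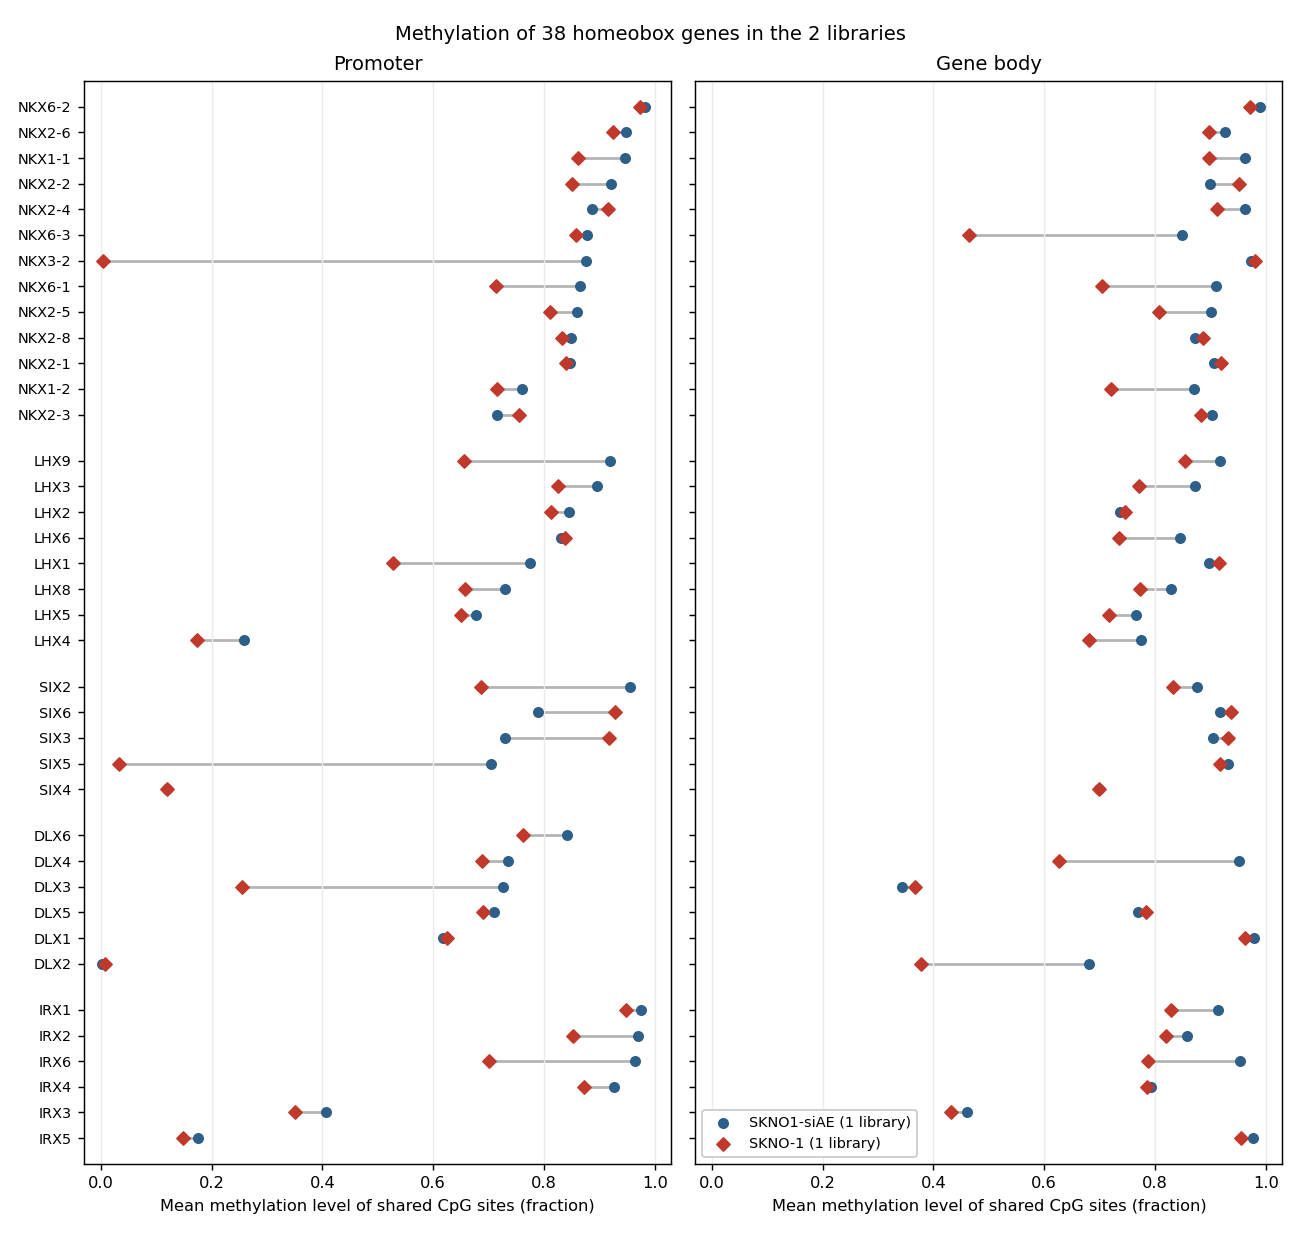
Mean methylation level (fraction, horizontal axis) of the promoter (left) and gene body (right) of 38 of the 40 genes, grouped by family and ordered by promoter level in SKNO1-siAE. Circles are the SKNO1-siAE library and diamonds the SKNO-1 library, 1 library each, joined by a line; most points sit above 0.5, and the long lines are NKX3-2, SIX5 and DLX3 on the left and NKX6-3, DLX4 and DLX2 on the right.

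**Figure D2:**
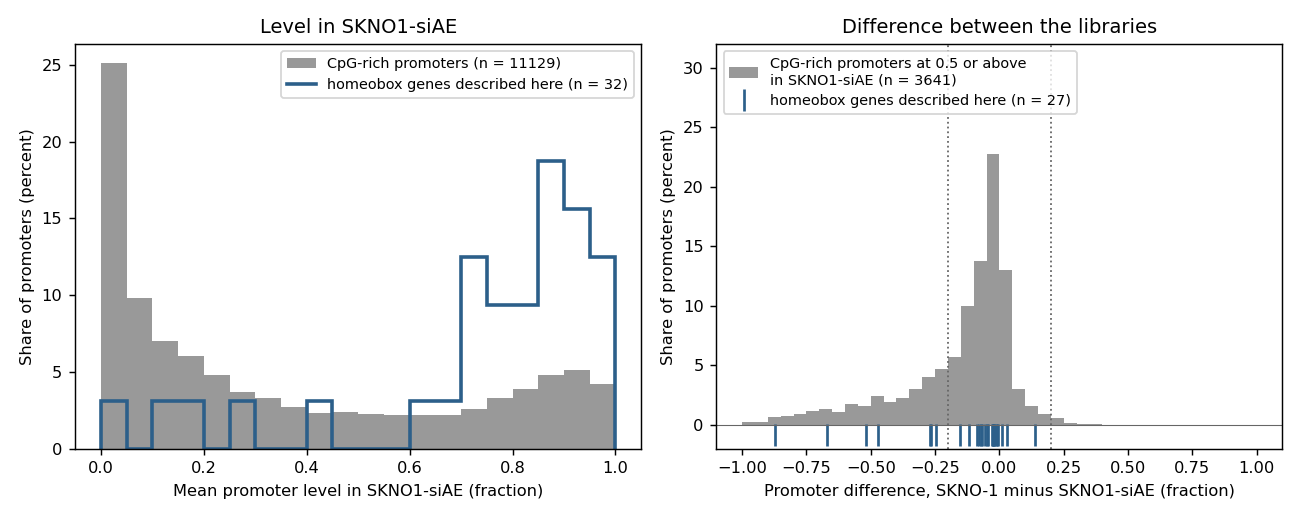
Left, share of promoters (percent) by mean level in SKNO1-siAE (fraction), for all 11129 CpG-rich promoters (filled) and the 32 homeobox promoters among them (line). Right, share of promoters by difference (SKNO-1 minus SKNO1-siAE) for the 3641 CpG-rich promoters at 0.5 or above in SKNO1-siAE, with a tick for each of the 27 homeobox promoters and dotted lines at differences of 0.2 in either direction; the ticks run from -0.872 to 0.138.

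A small set of the genes kept an unmethylated start in both lines. Within 500 bp of the annotated start of the gene, 36 genes had at least 10 sites, and LHX4, DLX1, DLX2, SIX4, IRX3 and IRX5 were below 0.1 in both libraries. These 6 genes (16.7%) compare with 49.8% of all 14106 genes measured there, and 25 of the 36 (69.4%) were at 0.5 or above in both libraries, against 26.5% of all genes. IRX5 was at 0.00546 in SKNO-1 and 0 in SKNO1-siAE over 66 sites around its start. DLX2 was at 0.0102 and 0 over 93 sites, and its neighbour DLX1 was at 0.0143 and 0.00763 over 73 sites. These starts carried almost no methylated reads in either library. LHX4, a LIM homeobox gene of pituitary development, was at 0.00406 and 0.00766 over 58 sites. SIX4 was at 0.0169 and 0.00922 over 31 sites, and IRX3 at 0 and 0.0388 over 20 sites. DLX4 came next, with 0.218 and 0.0853 over 27 sites.

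The start of DLX1 was unmethylated in both lines between methylated flanks. From 250 bp upstream to 749 bp downstream of the start, the levels of DLX1 in 250-bp steps lay between 0 and 0.0336 in SKNO-1 and between 0 and 0.0141 in SKNO1-siAE. In the step from 1000 to 1249 bp downstream, DLX1 was at 0.929 and 0.938. In the step that began 1500 bp upstream it was at 0.973 and 0.95. Nearer the start the upstream flank differed, at 0.993 and 0.729 over 6 sites in the step that began 1000 bp upstream and at 0.892 and 0.814 over 16 sites in the next. There DLX1 held a higher region, at positions -671 to -637, with 5 sites at 0.947 in SKNO-1 and 0.629 in SKNO1-siAE. The whole DLX1 promoter, at 0.625 and 0.617 over 322 sites of 7 annotated starts, therefore mixed an unmethylated start with methylated flanks. SIX4 had the same form, with 0 in both libraries over the 16 sites directly upstream of its start and 0.994 and 0.985 over 4 sites in the step that began 1000 bp upstream. The whole-promoter levels of DLX1 and SIX4 therefore describe such mixtures and not a single state.

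Among the promoters that differed by less than 0.1, the highest and lowest show the range of stable levels. The NKX6-2 promoter, of a gene of oligodendrocyte and spinal cord development, was at 0.974 and 0.982 over 349 sites, with 5096 of 5234 reads methylated in SKNO-1 (interval 0.969 to 0.978) and 6044 of 6152 in SKNO1-siAE (0.979 to 0.985). The IRX1 promoter was at 0.949 and 0.975 over 79 sites, all on the - strand, with pooled intervals of 0.931 to 0.969 and 0.966 to 0.984. NKX2-6, a relative of NKX2-5, was at 0.925 and 0.949 over 132 sites, with differences of -0.0439 on the + strand and -0.00761 on the - strand. These promoters were nearly fully methylated in either line. At the other end the DLX2 promoter was at 0.00796 and 0.00229 over 126 sites, with 17 of 2471 and 6 of 2232 reads methylated. The SIX4 promoter was at 0.12 and 0.119 over 52 sites, and IRX5 at 0.148 and 0.176 over 143 sites. The pooled intervals of IRX5, 0.192 to 0.223 and 0.21 to 0.246, overlapped. Those of SIX4, 0.262 to 0.319 and 0.186 to 0.249, did not, so its near-zero difference holds for the mean over sites and not for pooled reads.

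Of the 14 NK genes, all had promoter levels of at least 0.5 in SKNO1-siAE and 12 had them in SKNO-1. NKX3-2, a repressor of cartilage maturation in the axial skeleton (chr4:13542454-13546132, - strand), had the lowest NK promoter in SKNO-1, at 0.00433, against 0.876 in SKNO1-siAE. In SKNO-1 2 of 515 reads were methylated (interval 0.00107 to 0.014), and in SKNO1-siAE 92 of 105 were (0.8 to 0.926). The 21 sites behind these values all lay on the + strand within 139 bp around the start and were 7.45% of the CpG cytosines of the promoter. They were read at a median of 26 reads in SKNO-1 but 5 in SKNO1-siAE, and with at least 10 reads per site the promoter had no value. The NKX3-2 gene body, at 0.98 and 0.973 over 153 sites, was high in both lines.

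The NK2 genes differed little. NKX2-1, the thyroid, lung and forebrain factor, was at 0.84 and 0.847 in its promoter, and NKX2-5, the cardiac factor, was at 0.811 and 0.86. NKX2-2, which acts in ventral neural tube and islets, had 0.85 and 0.922, while NKX2-3, which acts in spleen and gut, had 0.755 and 0.715. NKX2-8 and NKX2-4 had 0.833 and 0.848, and 0.915 and 0.887. All 6 of these differences were smaller than 0.1. Short stretches within them went in opposite directions, since NKX2-2, NKX2-3, NKX2-5, NKX2-8 and NKX2-1 each held regions of both signs under the definition given below. At NKX2-3, 10 sites at positions -348 to -245 from the start were at 0.818 in SKNO-1 and 0.283 in SKNO1-siAE, with both strands higher (differences of 0.352 and 0.719). The NK1 genes NKX1-1 and NKX1-2 had promoter differences of -0.0853 and -0.0451.

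Of the NK6 genes, NKX6-1 and NKX6-3 had gene bodies past 0.2, and NKX6-2 had neither interval past it. NKX6-1, which acts in beta cells and motor neurons (chr4:85413138-85420445, - strand), had a body level of 0.705 in SKNO-1 and 0.911 in SKNO1-siAE over 174 sites, a difference just past 0.2 at -0.207. With pooled reads it was -0.106, and on the + strand -0.111, against -0.323 on the - strand. The body difference was concentrated in the last exon and the intron before it, at chr4:85414119-85414992, where 68 sites were at 0.494 and 0.967 and the pooled intervals were 0.457 to 0.521 and 0.944 to 0.968. Both strands were lower there, by differences of -0.295 and -0.631. The NKX6-1 promoter was at 0.713 and 0.865 over 133 sites, a difference of -0.151. It took in a stretch 940 to 1102 bp downstream of the start with 22 sites, all on the - strand, at 0.0417 and 0.955, and part of a stretch from 395 to 567 bp with 33 sites at 0.424 and 0.899. NKX6-1 also held 3 higher regions.

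NKX6-3, a gastric factor (chr8:41502696-41508336, - strand), had a promoter at 0.858 and 0.877 and a body at 0.464 and 0.849 over 100 sites. The body's pooled intervals were 0.371 to 0.417 and 0.849 to 0.882, and its strands differed by -0.657 on the + strand and -0.134 on the - strand. Almost all of this came from 326 bp in the distal part of the gene, 4005 to 4330 bp from its start, where 68 sites were at 0.317 and 0.908. The strands were unequal in this stretch. At its 32 CpGs read on both strands, the + strand was at 0.0817 in SKNO-1 and 0.941 in SKNO1-siAE, while the - strand of the same CpGs was at 0.591 and 0.865. At these CpGs NKX6-3 was thus lower on both strands but by -0.86 and -0.273. Over the whole body, where the strands differed by -0.657 and -0.134, its strand gap was the largest of any gene body in the set. What set this gap was not tested.

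Of the 8 LIM homeobox promoters, 7 were at or above 0.5 in both lines, with LHX4 the exception. LHX9, which acts in gonad and brain (chr1:197881032-197904608, + strand), had a promoter level of 0.655 in SKNO-1 and 0.919 in SKNO1-siAE over 176 sites of 8 annotated starts, with pooled intervals of 0.652 to 0.684 and 0.912 to 0.931. The difference came from the downstream starts. Within 500 bp of the 5′ end of LHX9 the level was 0.948 and 0.95, and with the promoter of that end alone the difference was 0.0128. From 4432 to 4697 bp into the gene, within the promoter interval of a downstream start, 27 sites were at 0.00981 and 0.823, with both strands lower (-0.788 and -0.831). A stretch from 3701 to 4116 bp was at 0.0657 and 0.922 over 19 sites. With promoters cut to 500 bp upstream the LHX9 difference was -0.199, just under the limit.

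LHX1, a gene of kidney, head and Purkinje cell development (chr17:35294084-35301912, + strand), had a promoter level of 0.528 and 0.774 over 182 sites of 6 starts, with pooled intervals of 0.528 to 0.572 and 0.776 to 0.805. A continuous region of 686 bp, chr17:35294430-35295115, held 45 sites at 0.0444 in SKNO-1 and 0.853 in SKNO1-siAE. In SKNO-1 14 of its 421 reads were methylated (interval 0.0199 to 0.055), and in SKNO1-siAE 774 of 882 were (0.854 to 0.898). The + strand and the - strand differed by -0.785 and -0.82, although only 2 of its CpGs were read on both. Over the whole LHX1 promoter, 37 CpGs were read on both strands, and their differences were -0.134 and -0.0132, smaller than the -0.247 of all its sites and not past 0.2. LHX1 held 3 further lower regions, 2 higher ones and a body at 0.916 and 0.898, and with each library's own sites its promoter difference was -0.184. LHX1 had the lowest read ratio of the set, with a log2 ratio of SKNO-1 to SKNO1-siAE reads of -0.65, and whether this bears on the difference was not tested.

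LHX2, which acts in forebrain, eye and hair follicle (chr9:126763949-126795580, + strand), had equal bodies, at 0.746 and 0.736, that hid opposite local differences. It held 5 regions that were higher and 4 that were lower in SKNO-1. The leading one, in an intron 6587 to 6812 bp from the start, had 15 sites at 0.793 in SKNO-1 and 0.234 in SKNO1-siAE, with 247 of 295 and 93 of 409 reads methylated. The + strand differed by 0.602 over 12 sites and the - strand by 0.39 over 3. The sequence of this stretch (hg19, chr9:126770536-126770762, + strand) is printed as 1 of the 3 leading stretches that were more methylated in the line with the fusion, written 5′ to 3′. Capitals mark each CpG here and in the sequences that follow.
LHX2: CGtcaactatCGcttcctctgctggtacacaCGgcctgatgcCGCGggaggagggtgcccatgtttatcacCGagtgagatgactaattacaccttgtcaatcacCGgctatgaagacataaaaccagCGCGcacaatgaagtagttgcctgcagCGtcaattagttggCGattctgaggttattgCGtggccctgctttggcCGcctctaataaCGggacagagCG
LHX6, LHX3, LHX8 and LHX5 had promoter differences of 0.0078, -0.0687, -0.0726 and -0.0283, all small beside those of LHX9 and LHX1. LHX6, which acts in cortical interneurons, had a body difference of -0.111, and LHX3, a pituitary factor, -0.101.

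**Figure D3:**
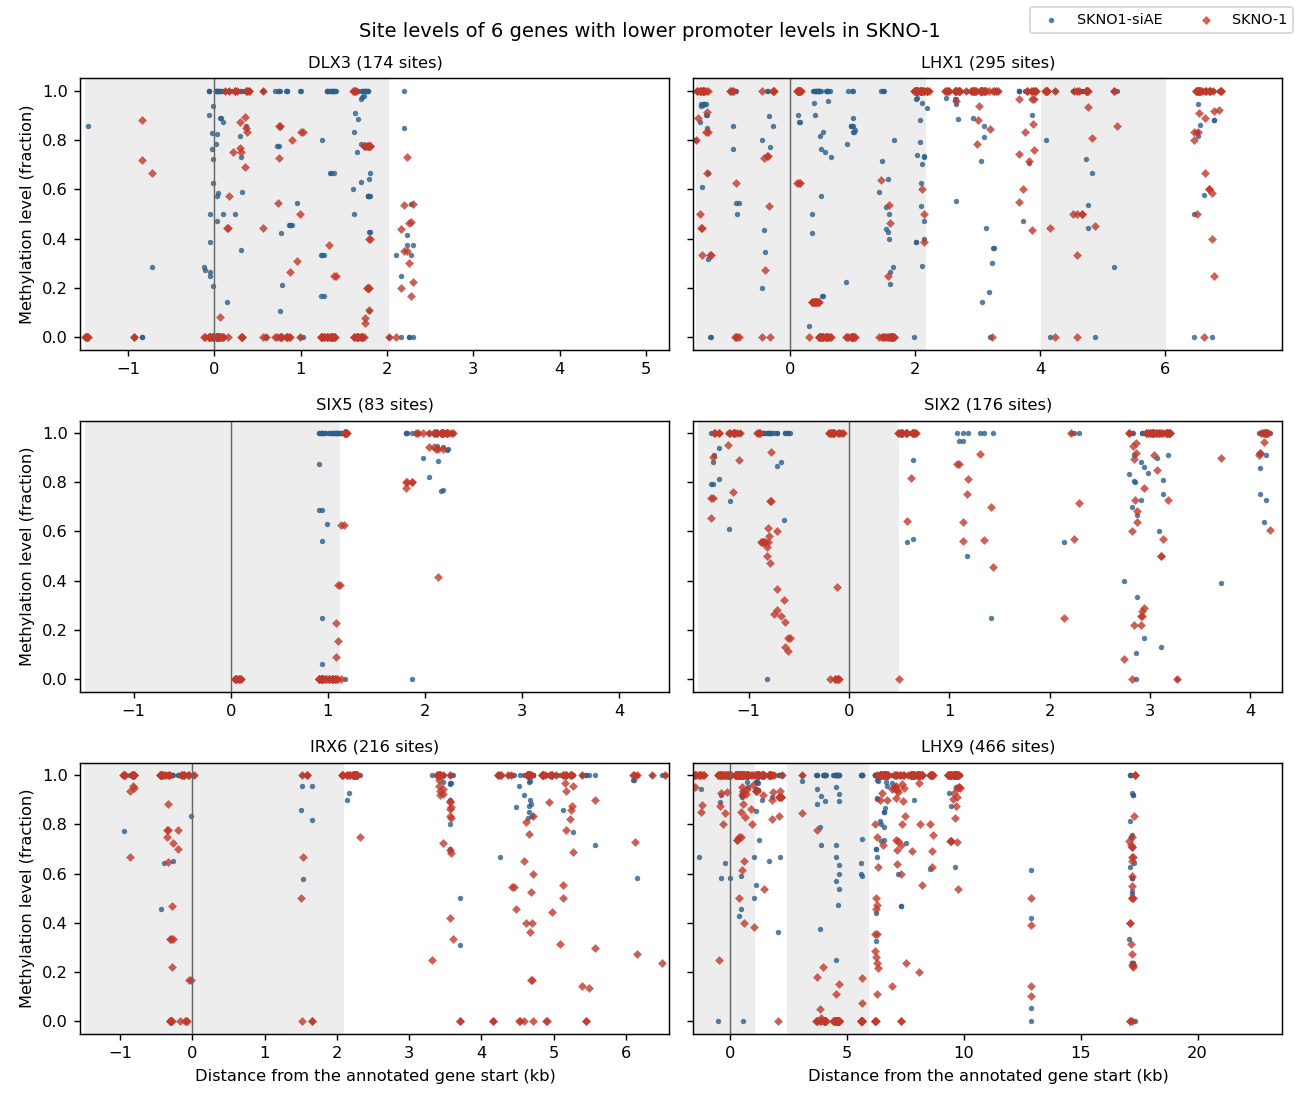
Methylation level (fraction) of each shared site against distance from the annotated start of the gene (kb) for DLX3, LHX1, SIX5, SIX2, IRX6 and LHX9, with circles for SKNO1-siAE, diamonds for SKNO-1, a vertical line at the start and shading over the promoter intervals. The diamonds fall to 0 in runs of neighbouring sites, just downstream of the start in LHX1 and about 4432 to 4697 bp downstream in LHX9, while the circles stay high.

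The sine oculis genes went in both directions. SIX5, which lies beside the DMPK gene on chromosome 19 (chr19:46268043-46272510, - strand), had a promoter level of 0.0327 in SKNO-1 and 0.704 in SKNO1-siAE over 38 sites, with 19 of 495 reads methylated (interval 0.0247 to 0.0592) and 370 of 551 (0.631 to 0.709). All 38 sites were on the + strand and were 7.42% of the CpG cytosines of its 3 promoter intervals. The difference lay in coding sequence 904 to 1162 bp downstream of the start, where 33 sites were at 0.0755 and 0.902 and which overlaps the antisense gene DM1-AS. The annotated 5′ end alone had too few sites for a value, and the 8 sites read in the first 250-bp step downstream of it were at 0 in both lines, over 70 and 128 reads. With each library's own sites the difference was -0.317 in place of -0.671.

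SIX2, a gene of nephron progenitors (chr2:45232321-45236591, - strand), was at 0.686 and 0.955 in its promoter over 69 sites, with pooled intervals of 0.618 to 0.678 and 0.913 to 0.948. The + strand differed by -0.477 and the - strand by -0.143, and at the 11 CpGs read on both strands the differences were -0.405 and -0.289. Its neighbour SIX3, a forebrain and eye gene, went the other way, at 0.918 in SKNO-1 and 0.729 in SKNO1-siAE over 34 sites. The difference of SIX3, 0.189, was the largest upward promoter difference of the 40 genes, and the + and - strands gave 0.16 and 0.225. With at least 10 reads per site it was 0.208, past the limit. SIX6, a paralog of SIX3 that acts in eye and pituitary, was at 0.928 and 0.79 over 95 sites. The strands of SIX6 gave 0.0849 and 0.215. No region in SIX3 or SIX6 was lower, whereas SIX3 held 5 higher regions and SIX6 held 2.

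The leading SIX6 region lay directly upstream of the start, at chr14:60975778-60975855, where 13 sites were at 0.92 in SKNO-1 and 0.244 in SKNO1-siAE. In SKNO-1 180 of 202 reads were methylated (interval 0.841 to 0.927), and in SKNO1-siAE 63 of 231 were (0.219 to 0.334). At the 6 CpGs with both strands inside the region the differences were 0.633 and 0.686. The cytosine next to its upstream edge was read but lay outside the region, and with it the 14 sites were at 0.899 and 0.298. The sequence of the region, with the base that completes its first CpG (hg19, chr14:60975777-60975855, + strand), is shown since it abuts the transcript start and both strands shared the higher level.
SIX6: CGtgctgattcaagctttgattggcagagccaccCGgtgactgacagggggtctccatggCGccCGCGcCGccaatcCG
By site means SIX4 differed by 0.000991 in its promoter, the smallest promoter difference of the set, and by 0.000834 in its body. On pooled reads its body was at 0.813 and 0.718, with intervals of 0.792 to 0.832 and 0.693 to 0.741 that did not overlap.

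The DLX genes lie as the couples DLX1 and DLX2, DLX3 and DLX4, and DLX5 and DLX6. DLX3, a gene of skin, hair and teeth (chr17:48067369-48072588, - strand), had a promoter level of 0.255 in SKNO-1 and 0.727 in SKNO1-siAE over 161 sites, with pooled intervals of 0.239 to 0.277 and 0.727 to 0.762. By the test of single sites 76 of its promoter sites were lower and 2 were higher. Both strands were lower, by differences of -0.441 and -0.526, and at its 41 CpGs read on both strands the differences were -0.445 and -0.591. Its partner DLX4 was at 0.688 and 0.735 in the promoter. The DLX4 body was at 0.626 and 0.952, but over 16 sites, and had no value at 10 reads per site. With only the promoter of the 5′ end set apart from the body, the DLX4 body difference was -0.106 in place of -0.326, no longer past 0.2.

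Across the start of DLX3, at positions -118 to 175, 43 sites were at 0.0824 and 0.778, and 16 CpGs read on both strands gave differences of -0.789 and -0.793. Further into the gene, stretches from 1242 to 1614 bp and from 1623 to 1783 bp were at 0.12 and 0.801, and at 0.255 and 0.934.

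DLX2, which acts in forebrain interneurons (chr2:172964166-172967628, - strand), joined an unmethylated promoter to a gene body at 0.377 in SKNO-1 and 0.681 in SKNO1-siAE over 113 sites. The pooled intervals of the body were 0.351 to 0.395 and 0.764 to 0.8. In SKNO1-siAE the unmethylated state ended about 1000 bp downstream of the start, whereas in SKNO-1 it went on. From 1000 to 1249 bp, DLX2 was at 0.0198 and 0.718, and from 1250 to 1499 bp at 0.11 and 0.928. From 1750 to 1999 bp both lines were high, at 0.943 and 0.944. A second stretch, 3020 to 3595 bp from the start, ran 133 bp past the end of the gene, where most of its sites lay. Its 27 sites were at 0.0772 and 0.995, and its strands differed by -0.933 and -0.906. With each library's own sites the body difference of DLX2 was -0.219 in place of -0.305, and on the - strand it was -0.125.

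DLX5, a gene of bone and limb (chr7:96649708-96654262, - strand), had nearly equal levels in its promoter, 0.69 and 0.709, and its body, 0.784 and 0.77. Within its intron lay the largest higher region of the set by the sum of site differences. At chr7:96652025-96652268, 20 sites were at 0.767 in SKNO-1 and 0.0824 in SKNO1-siAE, with 240 of 307 reads methylated (interval 0.732 to 0.824) and 47 of 428 (0.0836 to 0.143). At 5 CpGs read on both strands the differences were 0.915 and 0.807. Elsewhere DLX5 held 9 lower regions, so its means hid local differences of both signs. The sequence of the intronic region, with the bases that complete its outer CpGs (hg19, chr7:96652024-96652269, given on the - strand), is shown as the leading region more methylated in the line with the fusion. A cytosine among these added bases was read but lay outside the region, and with it the 21 sites were at 0.772 and 0.122.
DLX5: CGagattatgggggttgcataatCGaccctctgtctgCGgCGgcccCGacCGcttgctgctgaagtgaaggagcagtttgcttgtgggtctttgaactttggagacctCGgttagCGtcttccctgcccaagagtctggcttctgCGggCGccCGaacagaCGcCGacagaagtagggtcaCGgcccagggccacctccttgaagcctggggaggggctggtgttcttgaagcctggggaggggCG
Its neighbour DLX6 was at 0.762 and 0.841 in the promoter and held 5 lower and 0 higher regions.

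**Figure D4:**
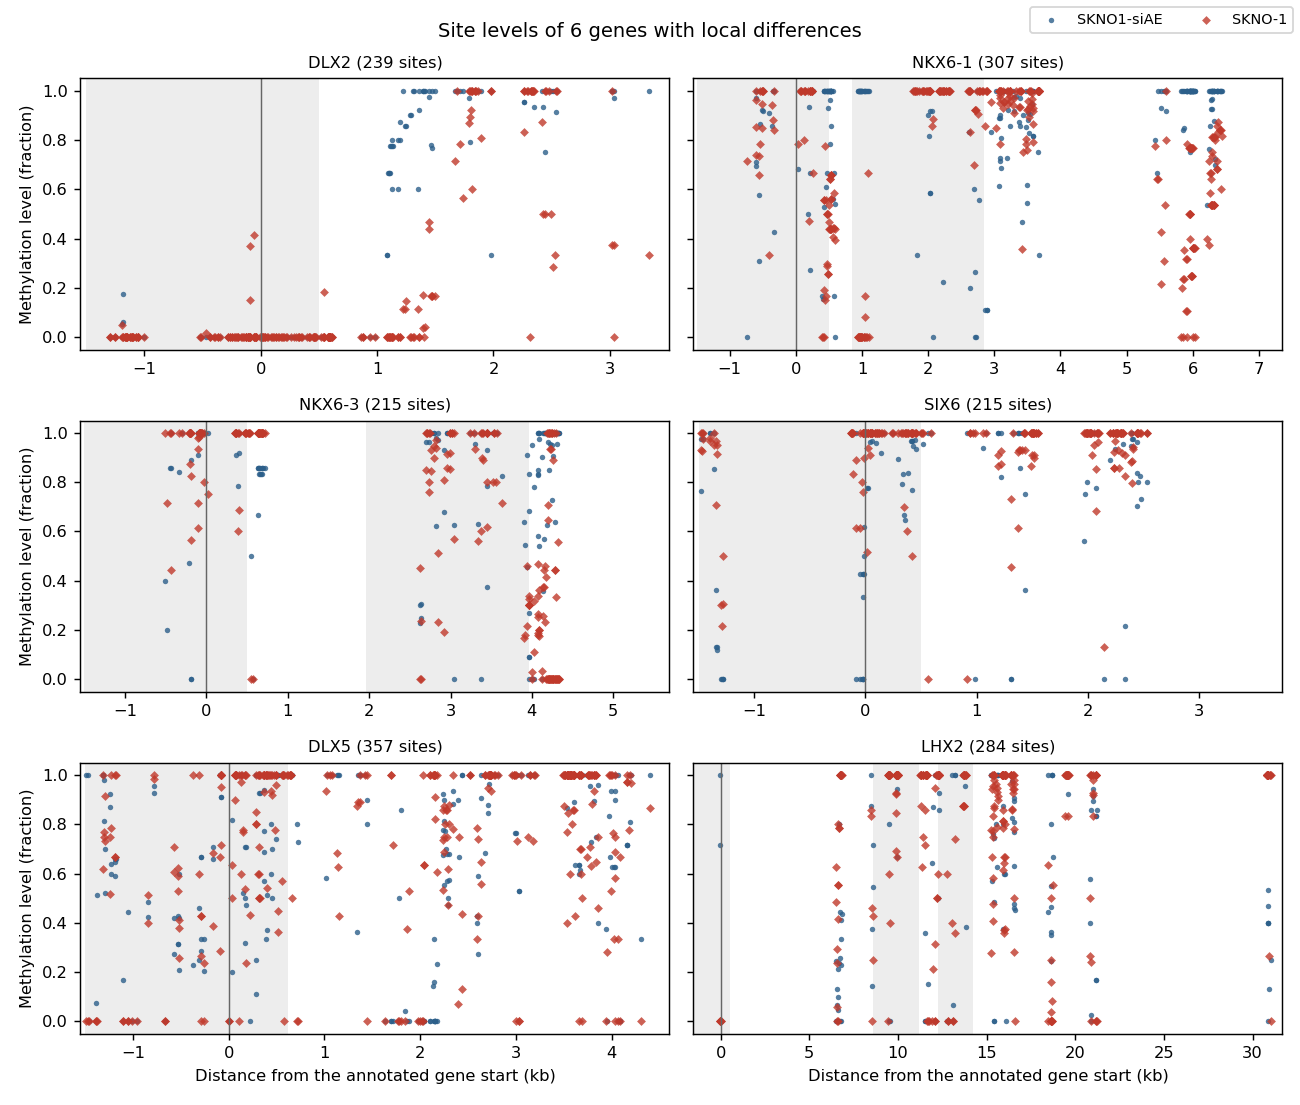
Methylation level (fraction) of each shared site against distance from the annotated start of the gene (kb) for DLX2, NKX6-1, NKX6-3, SIX6, DLX5 and LHX2, drawn as in the plot of the lower promoters. In DLX2 both series lie at 0 around the start and part 1000 to 1499 bp downstream, and in SIX6 the circles drop just before the start while the diamonds stay high.

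The IRX genes form a cluster on chromosome 5 (IRX1, IRX2 and IRX4) and a cluster on chromosome 16 (IRX3, IRX5 and IRX6), and all 6 promoter differences and all 6 body differences were below 0, as were 64.1% of all promoters and 64.7% of all bodies. The chromosome 5 promoters were high, with IRX1 at 0.949 and 0.975, IRX2 at 0.852 and 0.97, and IRX4, a ventricular heart gene, at 0.872 and 0.926. On chromosome 16 IRX3 and IRX5 had unmethylated starts, while IRX6 was at 0.7 in SKNO-1 and 0.965 in SKNO1-siAE over 71 sites. The pooled intervals of IRX6 were 0.714 to 0.772 and 0.95 to 0.973, and at its 17 CpGs read on both strands the differences were -0.392 and -0.303. With at least 10 reads per site IRX6 was at a difference of -0.183. The body of IRX6 was at 0.788 and 0.954, a difference of -0.166, and IRX6 held 7 lower and 0 higher regions. IRX3, which acts in neural tube and fat tissue, had whole-promoter levels of 0.35 and 0.407 over 46 sites, 8.91% of its promoter cytosines. IRX2 stood out in depth, with a log2 read ratio of 1.15, the highest of the set.

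Because methylation of a CpG is usually found on both of its strands, CpGs read on both strands give a check within a library. Over 35 promoters with at least 5 such CpGs, 1229 in all, the strands of a gene differed by a median of 0.034 in SKNO-1 and 0.035 in SKNO1-siAE. The differences between the libraries taken on either strand were apart by a median of 0.0631, and by under 0.2 for 33 of the 35 promoters. In gene bodies, with 38 genes and 1747 CpGs, the median was 0.0468, and 35 genes were under 0.2. IRX3 was the widest promoter, with 0.164 on the + strand and -0.401 on the - strand at 7 CpGs, so the strands disagreed in sign. NKX6-3 was the widest body. Of the 8 lower promoters, 6 had sites on both strands, and NKX3-2 and SIX5 had the + strand alone. Over all sites of each strand, which are not all the same CpGs, the 6 were lower on both strands. By that measure only DLX3 and LHX9 were lower by 0.2 or more on each. At CpGs read on both strands, DLX3, LHX9, SIX2 and IRX6 were lower by 0.2 or more on each, and the others of the 6 were not.

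A region was a run of 5 or more sites with gaps of up to 300 bp, in which both the mean difference and the difference smoothed over 5 sites reached 0.2 in the same direction. The 40 genes held 50 higher regions in 23 genes and 143 lower regions in 35 genes. Genes with at least 1 higher region were 30.4% of all genes and those with at least 1 lower region 52.2%, but genes with more measured sites have more chance of a region and the sets differ in this. Regions of both directions were found in 20 genes. DLX1, SIX3 and SIX6 had higher regions and no lower one, 15 genes had lower regions and no higher one, and NKX6-2 and SIX4 had neither. The median region was 98 bp long among the lower and 80.5 bp among the higher ones, the largest numbers of sites were 68 and 20, and 40 lower and 9 higher regions differed by at least 0.5. Of the 143 lower regions 71 touched a promoter interval and 36 touched coding sequence, and of the 50 higher regions 20 and 14 did.

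Other developmental families gave a frame for these values. Of 39 genes of the HOX clusters, 4 promoters were higher (10.3%) and 2 were lower (5.13%), with a median difference of -0.00719. The 40 genes described here had 0 and 8, and the shares over all promoters were 2.48% higher and 13.4% lower. Of 38 PAX, SOX and TBX genes, 0 were higher and 5 were lower (13.2%), with a median of -0.0453, beside the -0.0479 of the genes described here. These are counts, and no test of the difference between families was made. Median promoter levels in SKNO1-siAE were alike in the 3 groups, at 0.846, 0.807 and 0.854.

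The cofactors and relatives of these families were counted by list. None of the 5 measured EYA and DACH genes, the partners of sine oculis proteins, had a promoter past 0.2 in either direction, and the largest differences were at EYA2 (-0.103) and EYA1 (-0.0619). Of the 10 LIM partners and further LIM homeobox genes, 3 promoters were lower and 0 higher, where the shares over all promoters were 13.4% and 2.48%. They included LMO2, a LIM-only regulator of blood stem cells and a T-cell oncogene, at 0.251 and 0.705, and LMO3, at 0.503 and 0.893. Of 16 NK-linked promoters 3 were lower and 0 higher, led by LBX2 (0.512 and 0.948) and TLX2 (0.497 and 0.89). Of 11 promoters of TALE genes, some of which encode cofactors of other homeodomain proteins, 3 were lower and 1 was higher. The higher one was PBX3, at 0.699 and 0.19 over 48 sites, and the largest lower one was PBX4, at 0.508 and 0.863. Lower promoters were 18.8% of the NK-linked list, 30% of the LIM list, 27.3% of the TALE list and 0% of the EYA and DACH list. Of the 40 genes 20% were lower. Gene bodies past 0.2 were found in each list, where the shares over all bodies were 10.0% lower and 2.33% higher. Among 5 EYA and DACH bodies 1 was lower (EYA1, -0.213) and 1 higher (EYA4, 0.206). Among 10 LIM-linked bodies 2 were lower and 2 higher, the higher ones being LMO3 (0.31, over 18 sites) and LMO4 (0.242). Of 16 NK-linked bodies 4 were lower, led by HMX3 (-0.425), and of 10 TALE bodies 1 was, MEIS3 (-0.653, over 29 sites).

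Depth and motif content were also set beside the differences. The log2 read ratio of the 8 genes with lower promoters ran from -0.65 to 0.34 with a median of -0.14, and that of the other 32 from -0.45 to 1.15 with a median of 0.02. These ranges overlapped, and the part of read number in the differences was not tested. The hexamer TGTGGT, a form of the core sequence bound by RUNX1, was searched on both strands of the promoter of the 5′ end of each gene. Other forms were not searched. It was found in 19 of the 40 promoters (47.5%), against 64.7% of all promoters of that length. In the methylated CpG-rich class it was found in 16 of the 27 members (59.3%) and in 58.5% of all such promoters. A match is only a run of letters and marks no bound site.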

How the data were processed

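DNA methylation was measured by MCC-Seq in 1 library each of SKNO-1 and SKNO1-siAE. The authors trimmed the reads (cutadapt 1.4.2 per the processing notes), aligned them to hg19 with BSMAP 2.73, took calls from unique sequences and deposited counts of methylated and unmethylated reads for each CpG cytosine, without normalization and with at least 5 reads per site. Removal of PCR duplicates beyond this is not given in the sources used here. The authors' Metilene calls were not used.

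Site levels, interval means (at least 10 sites), regions and strand values were computed from the deposited counts. Single sites were tested with a 2-sided Fisher's exact test, Benjamini-Hochberg adjusted over all 3168726 shared sites. The annotation was GENCODE release 44 mapped to GRCh37 (hg19), the build of the files, which also gave the sequences. The site and region calling was tested on simulated reads. Those reads were drawn independently at each site, so the test did not cover reads shared by neighbouring sites or variation between libraries. The members and lists were chosen with earlier results of these data known.

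Results of 2 members, which are counted in the totals, and some sequences are not reported here. Among the other members, full values went to those whose promoter or body differed by at least 0.2, to the 3 highest and 3 lowest promoters among those that differed by less than 0.1, and to the 3 regions in each direction with the largest summed difference. Other regions named, and non-member genes beyond the 2 largest of a list, were picked with their values in view. Compared families and partner lists were given as counts with their largest differences. Alternatives covered the minimum reads and sites, pooling, strands, own sites, promoter limits, thresholds and adjustment. With 1 library per line there were no replicates. The depth of 14 reads at the median site of these genes makes single sites imprecise. The tools were pysam 0.24.0 for sequence, matplotlib 3.10.9 for plots, and scipy 1.17.1, numpy 2.4.6, numba 0.67.0 and pandas 2.3.3 under Python 3.11.15.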

Additional observations from a re-analysis of the deposited data

How the results depend on the processing

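Of 79 alternative values, 50 stayed close to the reported value and 29 moved. For a count, close means within 1.5 times. For a median, it means within the counting error of the pooled difference (0.00421 for promoters, 0.0032 for bodies). Only a median of at least 0.2 in size could have been counted as reversed, so no reversal could be found here. Every alternative median was below 0, as were the reported ones. No paired analysis was possible because each line had 1 library. The count of higher promoters, 0, was 1 with at least 10 reads per site (SIX3), 2 on the - strand and 2 at a difference of at least 0.1 (SIX3 and SIX6 in each). The count of lower promoters, 8, was 5 on the - strand and 4 at a difference of at least 0.3. The count of lower bodies, 4, was 1 on the - strand and 9 at a difference of at least 0.1. The median promoter difference, -0.0479, was -0.071 with pooled reads, -0.0417 on the + strand, -0.0395 on the - strand, -0.062 with merged strands and -0.0254 with the 5′ end alone. The median body difference, -0.034, was -0.0294 with at least 10 reads, -0.038 with pooled reads, -0.0406 on the + strand, -0.0274 on the - strand, -0.0495 with merged strands, -0.0384 with own sites, -0.0516 with the 5′ end alone and -0.0466 with promoters cut to 500 bp upstream. Sites called higher, 417, were 46 after Bonferroni adjustment, and sites called lower, 1178, were 165 after it and 741 with at least 10 reads. Higher regions, 50, numbered 23 with at least 10 reads, 29 at a difference of 0.3 and 8 with at least 10 sites, and lower regions, 143, numbered 69, 84 and 47. Stricter limits leave fewer sites, strands or genes to count. The cause of the other shifts was not tested.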
